A study of Mus musculus with 4 samples.

Results

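Tetraspanins are small proteins that cross the cell membrane several times and gather integrins, immunoglobulin-family proteins, receptors and proteases into clusters in the plane of the membrane. They act mostly through these lateral partners, and through them bear on adhesion, migration, receptor signalling, membrane fusion and the release of vesicles. Blood cells carry many of them, some shared with most tissues and a few largely restricted to leukocytes. The 10 tetraspanin genes described here, Cd9, Cd37, Cd53, Cd81, Cd82, Cd151, Tspan3, Tspan4, Tspan14 and Tspan32, were chosen by name, and all 10 were found among 51826 features of the deposited table. They were measured by RNA sequencing in mouse bone marrow cells. Per the titles, MLL-AF9, a leukaemia-driving fusion oncogene, was transduced into the Lin-c-kit+ fraction, which is enriched for stem and progenitor cells. All 4 samples were labelled as week 2, and the titles do not say whether the cells sequenced were still Lin-c-kit+. The comparison set 2 Elovl6 knockout (KO) libraries against 2 wild-type (WT) libraries, Elovl6 being the enzyme that lengthens palmitate to stearate. The labels name no Cre driver, age, strain or sex, and do not give the origin of the replicates. The p-values therefore rest on the scatter of 4 libraries, part of which could be technical.

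The KO libraries held 8986502 and 9699502 exon counts and the WT libraries 9883596 and 11941588. Elovl6, the check of the labels, had 17 and 34 counts in KO, against 1290 and 1673 in WT. Across the table, 329 of 11738 genes tested passed the edgeR test at an adjusted p under 0.05, with 214 higher and 115 lower in KO. The number was 1449 without KO replicate 1, 306 without KO replicate 2, 14 without WT replicate 1 and 25 without WT replicate 2. All 8 listed stem and progenitor markers were measured. Their summed level was 1359 and 1222 CPM (counts scaled to the library's effective size) in KO, against 1460 and 1511 CPM in WT. None of the 8 passed in exon counts with edgeR or DESeq2, and 3 were positive and 5 negative, where 49.3% of all genes were positive. An unadjusted p under 0.05 was found for 3 with edgeR, beside 20.8% of all genes. In intron reads Meis1 fell (log2 fold change of KO over WT -0.41, SE 0.09, adjusted p = 0.0354, edgeR), and DESeq2 called 1 of the 8. Over all genes tested in intron reads, edgeR called 4.81%, and DESeq2 called 468 of 12359. In these bulk samples, fewer cells of a type and less RNA per cell cannot be told apart.

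Sequence around the start sites was taken from RefSeq windows (GRCm38.p6, the mm10 build) that run from 250 bases before to 50 bases after a gene's start. All 10 members matched by symbol, and where several starts were listed the one nearest the gene's annotated start was used. 4 of the 10 are shown: Cd9 because it was the member that passed the test, Cd53 because it had the highest level, and Cd81 and Tspan32 because they are neighbours on chromosome 7. The windows are chr6:125494711-125495010 on the minus strand, chr3:106790100-106790399 on the minus strand, chr7:143052500-143052799 on the plus strand and chr7:143004796-143005095 on the plus strand, in that order. Capitals mark matches on either strand to 6 short words: GGGCGG for the GC box, CCAAT for the promoter box of that name, TATAAA for the box near many starts, GAGGAAG for a PU.1-type word, TGTGGT for a RUNX word and TGACTCA for an AP-1 word.
Cd9: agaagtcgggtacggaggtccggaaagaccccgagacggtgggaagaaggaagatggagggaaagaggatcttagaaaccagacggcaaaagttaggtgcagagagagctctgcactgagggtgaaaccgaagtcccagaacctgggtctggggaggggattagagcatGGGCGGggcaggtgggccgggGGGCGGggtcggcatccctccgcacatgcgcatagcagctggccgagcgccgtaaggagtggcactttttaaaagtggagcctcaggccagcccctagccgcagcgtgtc
Cd53: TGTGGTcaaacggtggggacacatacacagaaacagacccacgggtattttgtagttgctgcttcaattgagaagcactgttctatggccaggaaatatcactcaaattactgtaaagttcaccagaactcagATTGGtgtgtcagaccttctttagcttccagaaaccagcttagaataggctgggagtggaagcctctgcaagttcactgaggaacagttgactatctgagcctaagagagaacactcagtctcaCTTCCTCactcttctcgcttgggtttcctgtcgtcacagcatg
Cd81: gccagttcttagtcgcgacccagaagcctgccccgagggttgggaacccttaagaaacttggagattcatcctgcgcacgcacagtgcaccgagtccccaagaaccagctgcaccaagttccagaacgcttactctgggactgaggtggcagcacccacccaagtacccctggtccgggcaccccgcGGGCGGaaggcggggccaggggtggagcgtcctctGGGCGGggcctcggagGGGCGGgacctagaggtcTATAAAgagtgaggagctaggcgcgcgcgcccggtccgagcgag
Tspan32: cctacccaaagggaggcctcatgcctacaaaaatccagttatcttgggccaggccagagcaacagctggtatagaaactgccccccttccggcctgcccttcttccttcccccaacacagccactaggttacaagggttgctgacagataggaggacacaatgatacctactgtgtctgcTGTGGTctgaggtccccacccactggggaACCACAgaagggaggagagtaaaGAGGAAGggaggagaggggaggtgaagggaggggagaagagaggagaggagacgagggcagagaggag

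The windows shown differed in their number of CpG sites. Cd9 and Cd81 held 18 and 23 CpG sites in the window and carried 2 and 3 GC boxes, and Cd81 also had the TATA word at base 257, after the listed start. Cd53 and Tspan32 held 4 and 2 CpG sites and no GC box, and both carried the PU.1-type word and at least 1 RUNX word. Among the members not shown, these words also lay in windows with more CpG sites. Tspan14 held 33 CpG sites, with GC boxes and the PU.1-type word. Cd37 held 8, with a GC box and the PU.1-type word, and Tspan3 held 19, with a RUNX word. Over all 10 members the median was 18.5 CpG sites, against 7 over 32851 listed windows. The GC box was found in 7 of 10 members and in 35.7% of all windows. The PU.1-type word was found in 4 of 10 (Cd37, Cd53, Tspan14 and Tspan32) and in 13.6% of all windows. The RUNX word was in 3 of 10 (16.8% of all), the CCAAT box in 2 of 10 (37.4%), the TATA word in 1 of 10 (13.6%), the E-box CACGTG in 1 of 10 (7.15%) and the AP-1 word in none (5.20%). A match describes letters in the window and is not a binding site.

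Cd53 was the most abundant member per length of exon, and the family spanned a wide range below it. Over the 4 libraries Cd53, a leukocyte-restricted tetraspanin, averaged 103 CPM per kb of exon. Cd81, a widely expressed tetraspanin, followed at 41.7 and Cd37, another leukocyte-restricted member that binds dectin-1, at 34.5. Tspan14, of the group that guides the sheddase ADAM10, stood at 33.8 and Tspan32, a tetraspanin of blood cells, at 28.7. Tspan4, a component of migrasomes, averaged 13.8 and Cd82, known in human cancer as a suppressor of metastasis, 11.9. Cd9, an organiser of adhesion and membrane fusion, averaged 11.5, Cd151, the partner of laminin-binding integrins, 5.45, and Tspan3, which mouse acute myeloid leukaemias are known to need, 4.86. The ranges over libraries did not overlap between Cd53 and Cd81, between Cd81 and Cd37, or between Tspan32 and Tspan4. The ranges of the other neighbours in this order overlapped. Within each of the 4 libraries, Tspan4 was still above Cd82 and Cd9 above Cd151, while the order of the remaining neighbours varied between libraries.

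**Figure D1:**
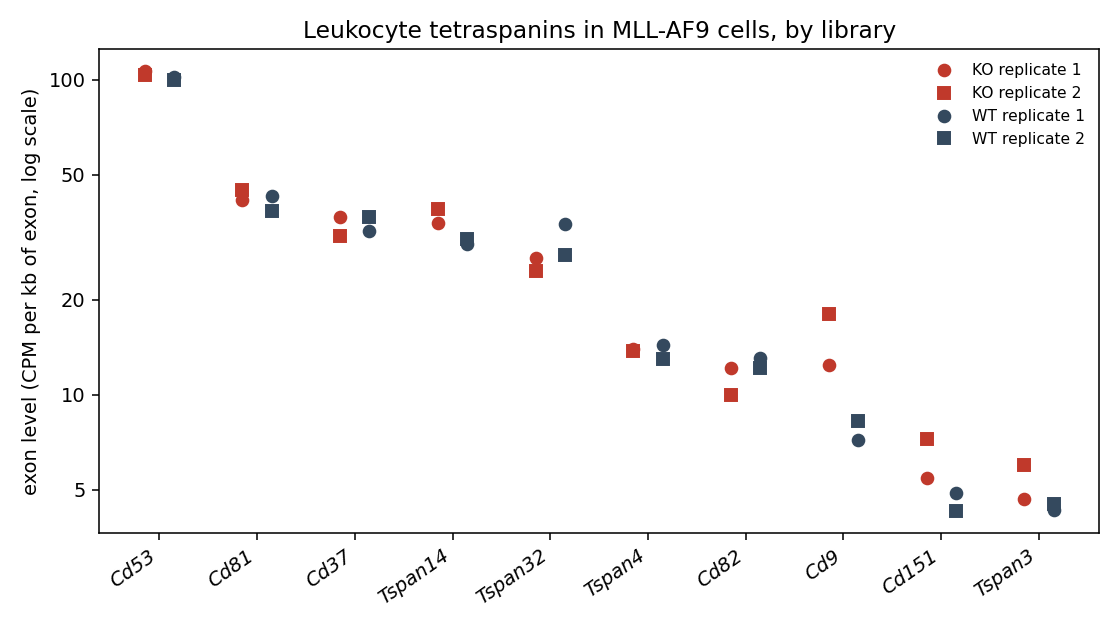
Exon level of each tetraspanin in CPM per kb of exon on a log scale, 1 point per library, with KO in red to the left and WT in dark blue to the right (circle for replicate 1, square for replicate 2). Cd53 lies near 103 CPM per kb in all 4 libraries and Cd9 is the member whose KO and WT points are farthest apart.

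The sum of the family was much the same in both genotypes. The 10 genes together held 725.1 and 730.4 CPM in KO, against 708.1 and 682.8 CPM in WT. Both KO sums lay above both WT sums, and the lower KO sum was nearer to the higher WT sum than the WT sums were to each other. The sum was not tested, since an exact permutation of 2 libraries against 2 gives a two-sided p of at least 0.333. Per length, Cd53 made up 36.0% and 34.8% of the family's level in KO, against 35.7% and 36.3% in WT. Cd9 made up 4.20% and 6.03% in KO, against 2.50% and 2.98% in WT.

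Among the 10 members only Cd9 passed the test in exon counts, and it was higher in KO. That is 1 of 10, beside 2.80% of all genes tested, and DESeq2 also called 1. An unadjusted p under 0.05 was found for 3 of 10 members and 20.8% of all genes. Their log2 fold changes (KO over WT) had a median of 0.07, against -0.0037 over all genes, and 7 were positive and 3 negative, where 49.3% of all genes were positive. 5 of 10 members lay within 1.2-fold of no change, against 72.1% of all genes. KO and WT libraries did not overlap in 7 of 10 members, against 53.8% of all genes.

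Cd9 (ENSMUSG00000030342; chromosome 6, 125460266 to 125494791, minus strand, 2044 bases of exon) had 228 and 358 exon counts in KO, against 144 and 201 in WT. Scaled, these were 25.4 and 36.9 CPM in KO, against 14.7 and 16.8 CPM in WT. Both KO libraries stood above both WT libraries, and KO replicate 2 stood well above KO replicate 1. The mean was 31.1 ± 8.14 CPM in KO and 15.8 ± 1.54 CPM in WT (SD, n = 2 each). Cd9 thus rose by 0.98 on the log2 scale (SE 0.19; adjusted p = 0.0492, edgeR), just inside the threshold. In the same libraries the summed monocyte and macrophage markers were at 335.5 and 561 CPM in KO, against 198 and 231.5 CPM in WT, and their part in the result was not tested. The authors' deposited table gave a fold change of 1.96 and a corrected p of 7.89e-05. Reads across exon-exon junctions numbered 109 and 167 in KO, against 74 and 91 in WT, and gave a log2 fold change of 0.95. Over 12 alternatives the value stayed between 0.68 and 1.22 and the adjusted p ran between 1.71e-10 and 0.395, under the threshold in 6. The call was lost with RLE scaling, with a mean of at least 10 CPM, with limma-voom, and without KO replicate 2 (0.68), WT replicate 1 (0.88) or WT replicate 2 (1.08).

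Intron reads, counted apart from exon reads in the same libraries, gave Cd9 a similar value. There were 129 and 206 intron reads in KO, against 82 and 133 in WT. Scaled by intron totals, these were 19.1 and 27.1 CPM in KO, against 11.2 and 14.9 CPM in WT. Both KO libraries again stood above both WT libraries. The fit gave a log2 fold change of 0.82 (SE 0.21), short of the threshold (adjusted p = 0.0746, edgeR). The exon change exceeded the intron change by 0.17 (SE 0.18), which did not pass the test of the difference (adjusted p = 0.775, edgeR). Of the annotated genes that overlap Cd9 on the opposite strand, Gm28809 had 3 and 1 exon counts in KO against 3 and 4 in WT, and Gm26728 had none.

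The nearest tested genes on either side of Cd9 were Plekhg6 and Vwf. Vwf, which encodes von Willebrand factor of megakaryocytes and endothelium, lies 51983 bases away. It had 10.1 and 18.0 CPM in KO, against 4.07 and 8.21 CPM in WT, a log2 fold change of 1.18 (SE 0.38; adjusted p = 0.145, edgeR). Plekhg6 lies 79473 bases away and had a log2 fold change of 0.80 (SE 0.48; adjusted p = 0.39, edgeR). Neither passed the threshold.

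**Figure D2:**
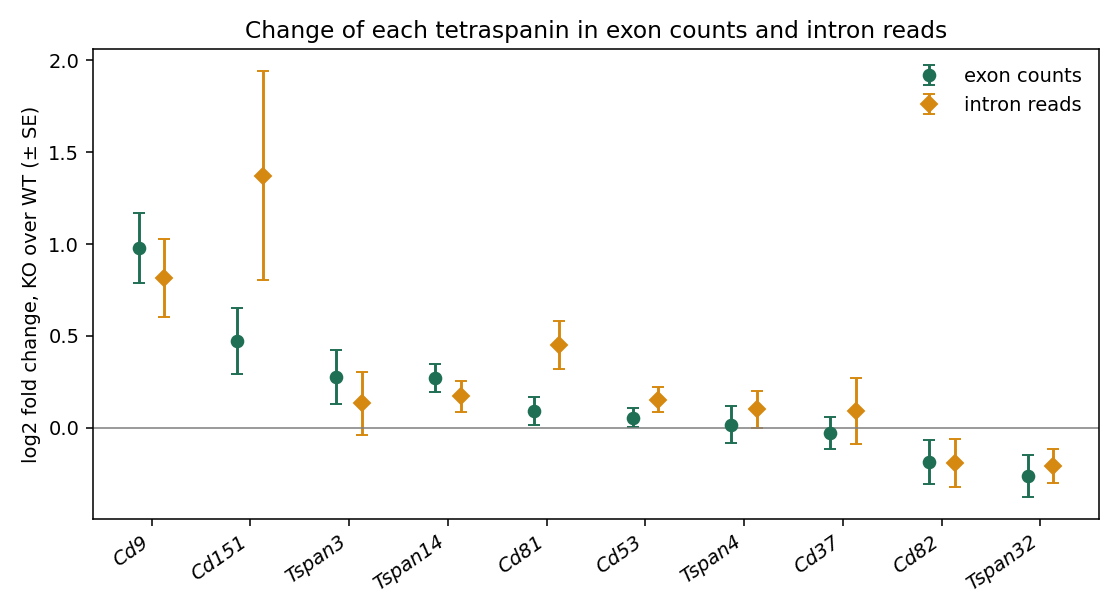
Log2 fold change of KO over WT for each tetraspanin in exon counts (green circles) and in intron reads (orange diamonds), with bars of 1 SE from the edgeR fit. Cd9 is at 0.98 in exon counts and 0.82 in intron reads, Cd151 has a wide intron bar, and Cd82 and Tspan32 lie below 0 by both.

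The leukocyte-restricted members Cd53 and Cd37 differed little between genotypes. Cd53 (chromosome 3, 106759921 to 106790149, minus strand) had 1667 and 1759 exon counts in KO, against 1751 and 2083 in WT. This came to 185 and 181 CPM in KO, against 178 and 174.5 CPM in WT. The KO libraries lay above the WT libraries by a small margin, with a log2 fold change of 0.05 (SE 0.05; adjusted p = 0.613, edgeR). Its intron reads gave 0.15 (SE 0.07; adjusted p = 0.269, edgeR). Cd37 (chromosome 7, 45233632 to 45239115, minus strand) had 129 and 112 CPM in KO, against 116 and 129 CPM in WT. The groups overlapped, and the log2 fold change was -0.03 (SE 0.09).

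Cd81 showed little difference in exon counts and a larger one in intron reads. Cd81 (chromosome 7, 143052739 to 143067934, plus strand) had 119 and 128.5 CPM in KO exons, against 123 and 110.1 CPM in WT. These overlapped, with a log2 fold change of 0.09 (SE 0.07). Its intron reads numbered 195 and 198 in KO, against 140 and 186 in WT. Scaled by intron totals, both KO libraries (28.9 and 26.1 CPM) exceeded both WT libraries (19.2 and 20.9 CPM). The intron log2 fold change was 0.45 (SE 0.13), short of the threshold (adjusted p = 0.102, edgeR), and the exon change lay 0.35 below it (difference -0.35, SE 0.13; adjusted p = 0.214, edgeR). R74862, a transcript on the opposite strand, overlaps the start of Cd81 and had 29 and 38 exon counts in KO against 36 and 53 in WT.

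Tspan32 had lower values in KO and did not pass the test. It lies on chromosome 7 (143005046 to 143019644, plus strand), 33094 bases from Cd81. Its exon level was 77.6 and 70.5 CPM in KO, against 99.0 and 79.4 CPM in WT. The groups were separate only by the gap between KO replicate 1 and WT replicate 2, and WT replicate 1 was the high one. The log2 fold change was -0.27 (SE 0.11; adjusted p = 0.246, edgeR), and -0.21 (SE 0.09; adjusted p = 0.26, edgeR) in intron reads. Without WT replicate 1 the exon value was -0.10, and without WT replicate 2 it was -0.43.

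Tspan14, Cd151 and Tspan3 had higher values in KO that did not pass the test. Tspan14 (chromosome 14, 40906445 to 40966807, minus strand) had 87.0 and 96.0 CPM in KO, against 74.5 and 77.2 CPM in WT. All KO values exceeded all WT values, with a log2 fold change of 0.27 (SE 0.08; adjusted p = 0.111, edgeR). Its intron reads, 2137 and 2725 in KO against 2144 and 2733 in WT, gave 0.17 (SE 0.08; adjusted p = 0.307, edgeR). Cd151 (chromosome 7, 141467392 to 141471473, plus strand) had 134 and 192 exon counts in KO, against 131 and 140 in WT. That was 14.9 and 19.8 CPM in KO, against 13.3 and 11.7 CPM in WT, a log2 fold change of 0.47 (SE 0.18; adjusted p = 0.2, edgeR). Its intron value of 1.37 (SE 0.57) rests on 20 and 12 reads in KO, against 3 and 11 in WT. Tspan3 (chromosome 9, 56131725 to 56165477, minus strand) had 19.9 and 25.6 CPM in KO, against 18.4 and 19.2 CPM in WT. Its log2 fold change of 0.28 (SE 0.15; adjusted p = 0.344, edgeR) was 0.08 without KO replicate 2 and 0.44 without KO replicate 1. The values of Cd151 and Tspan14 without KO replicate 2 were 0.25 and 0.20; without KO replicate 1 they were 0.66 and 0.34, past the threshold (adjusted p = 0.0338 for Cd151 and 0.032 for Tspan14, edgeR). Junction reads gave Cd151 a value of 0.01.

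Tspan4 and Cd82 did not pass the test either. Tspan4 lies on chromosome 7 (141475240 to 141493427, plus strand), 3766 bases from Cd151 with Polr2l between them. It had 30.4 and 30.0 CPM in KO, against 31.4 and 28.3 CPM in WT, a log2 fold change of 0.02 (SE 0.10). The groups overlapped, unlike those of its neighbour Cd151. The end of Tspan4 overlaps that of Chid1 on the opposite strand, which had 453 and 472 exon counts in KO against 543 and 627 in WT. Cd82 (chromosome 2, 93419111 to 93463140, minus strand) had 36.58 and 30.1 CPM in KO, against 39.3 and 36.62 CPM in WT. KO replicate 1 and WT replicate 2 were nearly equal, and the log2 fold change was -0.19 (SE 0.12; adjusted p = 0.422, edgeR). Its intron reads gave -0.19 (SE 0.13).

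In all, 5 of the 10 members lie on chromosome 7, with Cd151 beside Tspan4 and Tspan32 beside Cd81, and the exon log2 fold changes of neighbours were unlike in size or sign. They were 0.47 for Cd151 and 0.02 for Tspan4, and -0.27 for Tspan32 and 0.09 for Cd81. The difference between neighbours was not tested.

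None of the 10 members passed the test in intron reads, where 4.81% of 12359 genes did. With edgeR, 3 of 10 had an unadjusted p under 0.05 (Cd9, Cd81 and Cd151), beside 19.8% of all genes, and DESeq2 called none. Intron log2 fold changes were positive in 8 of 10 with a median of 0.14, against 51.1% positive and a median of 0.0063 over all genes. KO and WT libraries did not overlap in 7 of 10 members, against 51.7% of all genes. The exon change differed from the intron change in none of the members by edgeR, beside 1.42% of 10366 genes, and 1 member, Cd81, had an unadjusted p under 0.05, beside 12.0% of all genes. No other tool was run on this difference.

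The share of reads in introns varied widely between members, with pooled values up to 73.9% in KO and 74.7% in WT for Tspan14. Introns took 73.2% to 74.8% of the uniquely placed reads of Tspan14 over the 4 libraries, with exact (Clopper-Pearson) 95% intervals that ran from 71.6% to 76.2%. Cd37 was at 5.78% to 8.41%, with intervals from 4.54% to 10.1%. Tspan32 stood out per length: its introns held 39.5% as many reads per base as its exons in KO and 37.2% in WT. Only uniquely placed reads entered this ratio. Of the exon reads of Tspan32 83.2% were uniquely placed, the lowest share among the members, so its exon density leaves out part of its reads. Tspan4 was at 20.2% in KO and 18.6% in WT. Cd9 was at 3.61% in KO and 3.92% in WT, and Cd53 at 5.24% in KO and 4.76% in WT. Cd81 was at 3.96% in KO and 3.02% in WT. Its intron share was 15.4% and 13.7% in the KO libraries (intervals 13.4% to 17.5% and 12.0% to 15.6%), against 10.4% and 12.4% in the WT libraries (8.82% to 12.2% and 10.8% to 14.2%). These intervals cover counting error only.

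**Figure D3:**
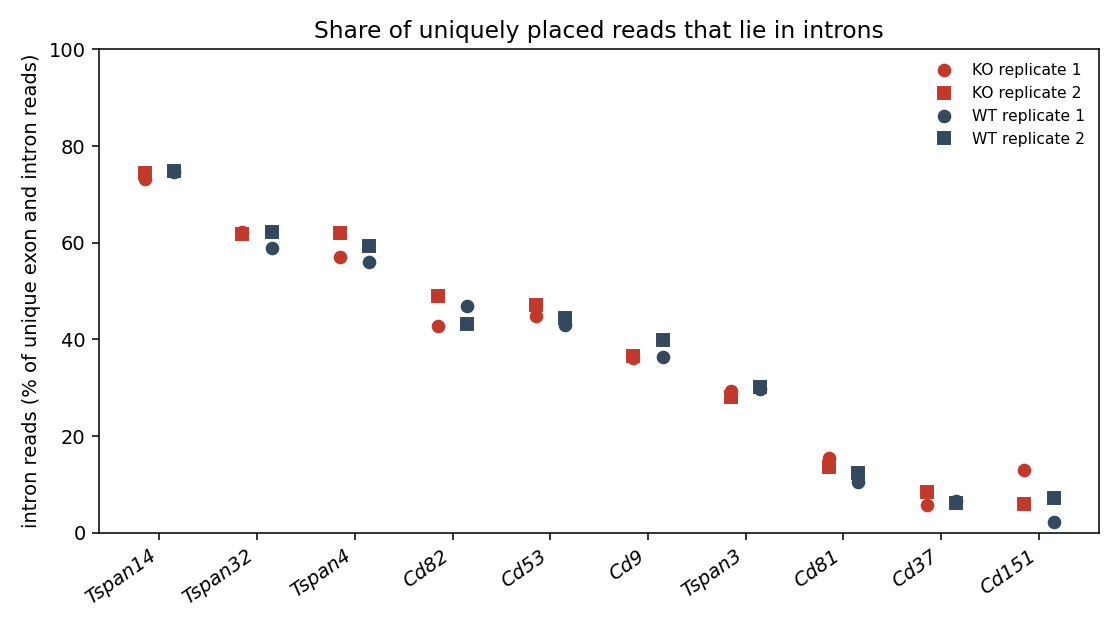
Share of uniquely placed exon and intron reads that lie in introns, in percent, for each tetraspanin, 1 point per library, with KO in red to the left and WT in dark blue to the right (circle for replicate 1, square for replicate 2). Tspan14 lies at 73.2% to 74.8% and Cd37 at 5.78% to 8.41%, the KO points of Cd81 lie above its WT points, and Cd151 scatters within both genotypes.

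Outside the 10 members, Cd63 fell in KO. Of 21 other tetraspanin genes, 8 were tested, of which 1 fell and none rose, beside 2.80% of all genes called. Of the 8, 2 were positive and 6 negative, where 49.3% of all genes were positive. Their median was -0.20, against -0.0037 over all genes. With edgeR 2 had an unadjusted p under 0.05, beside 20.8% of all genes, and DESeq2 called 1. In intron reads 11 were tested and 1, Tspan12, fell, beside 4.81% of all genes called. Cd63, the tetraspanin of late endosomes, lysosomes and secretory granules, had 624 and 434 exon counts in KO, against 1080 and 1293 in WT. This was 69.4 and 44.7 CPM in KO, against 110.0 and 108 CPM in WT. The WT libraries were nearly equal and both KO libraries lay well below them, with a log2 fold change of -0.94 (SE 0.17; adjusted p = 0.0463, edgeR). Intron reads gave -0.97 (SE 0.26), short of the threshold (adjusted p = 0.0802, edgeR). Of all its exon reads 51.0% were uniquely placed, so part of the level depends on how reads shared with near-identical copies were counted. With uniquely placed exon reads alone the log2 fold change was -0.875 (SE 0.136, adjusted p = 0.0298, edgeR). Junction reads gave -0.863 (SE 0.125, adjusted p = 0.00188, edgeR). The call was lost with a mean of at least 10 CPM, without WT replicate 1 and without WT replicate 2, and without KO replicate 2 the value was -0.65.

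The other tested tetraspanins with the smallest p had lower values in KO and missed the threshold in exon counts. Tspan12, a partner of ADAM10 and of the Norrin receptor, had 6.23 and 6.38 CPM in KO, against 8.45 and 10.8 CPM in WT. Its exon log2 fold change was -0.62 (SE 0.21; adjusted p = 0.159, edgeR), and its intron reads fell by 0.74 on the log2 scale (SE 0.16; adjusted p = 0.044, edgeR). Tspan5, like Tspan14 one of the ADAM10 guides, had -0.18 (SE 0.09) and Tspan2 had -0.21 (SE 0.10). Tspan13 had 4.45 and 5.66 CPM in KO, against 4.48 and 8.46 CPM in WT. Its groups overlapped, and the value of -0.37 (SE 0.34) became 0.17 without WT replicate 2. Of the 13 not tested, Tspan8, Tspan11 and Upk1b had no count in any library.

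Among proteins known to act with tetraspanins, Ifitm3 rose. Of 20 partner genes, 16 were tested, of which 1 rose and none fell, beside 2.80% of all genes called. Of the 16, 13 were positive and 3 negative, with a median of 0.11, where 49.3% of all genes were positive. With edgeR 6 had an unadjusted p under 0.05, beside 20.8% of all genes. DESeq2 called 4, beside 484 of 11738 genes. In intron reads 14 were tested, and edgeR called Clec7a higher and Rab27a lower, beside 4.81% of all genes called. DESeq2 called 1 of the 14 in intron reads. Ifitm3, an antiviral membrane protein of the CD225 family, had 62.9 and 98.6 CPM in KO, against 29.9 and 34.3 CPM in WT. KO replicate 2 was the highest, as for Cd9, and the log2 fold change was 1.33 (SE 0.20; adjusted p = 0.0307, edgeR). The call was lost with junction reads and without WT replicate 1 (1.23) or WT replicate 2 (1.43). Ifitm1, which in human cells binds CD81, had 390.5 and 514 CPM in KO, against 311 and 314 CPM in WT (log2 fold change 0.53, SE 0.12; adjusted p = 0.0668, edgeR). Clec7a, the fungal receptor dectin-1 that CD37 binds, had 30.1 and 51.1 CPM in KO, against 15.5 and 21.1 CPM in WT (1.14, SE 0.26; adjusted p = 0.0694, edgeR). The intron change of Clec7a was 0.90 (SE 0.20; adjusted p = 0.0465, edgeR).

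Rab27a, a GTPase that docks vesicles for secretion, had 176 and 155 CPM in KO, against 207 and 234 CPM in WT. The exon log2 fold change of -0.42 (SE 0.09) missed the threshold (adjusted p = 0.0564, edgeR). Its intron reads fell by 0.70 (SE 0.08; adjusted p = 0.00371, edgeR), and the exon change differed from the intron change by 0.28 (adjusted p = 0.024, edgeR). Itga6, a laminin receptor subunit that CD151 binds, had a log2 fold change of 0.21 (SE 0.07; adjusted p = 0.135, edgeR).

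Marker genes of other cell types were read beside these results, and their part in them was not tested. Of 9 monocyte and macrophage markers in the table, 8 were tested and 1, Lgals3, rose, with 127 and 221 CPM in KO against 56.2 and 66.9 CPM in WT (adjusted p = 0.0355, edgeR), a call lost among genes averaging 10 CPM or more, without WT replicate 1 or without WT replicate 2. Over all genes tested, 2.80% were called in exon counts. Of the 8, 7 were positive, with a median of 0.86, where 49.3% of all genes were positive. An unadjusted p under 0.05 was found for 6 with edgeR, beside 20.8% of all genes, and DESeq2 called 4. In intron reads edgeR called 1 of 7, beside 4.81% of all genes, and DESeq2 called 2. Their summed level was 335.5 and 561 CPM in KO, against 198 and 231.5 CPM in WT. The order of the 4 libraries, highest in KO replicate 2, was that of Cd9 and Ifitm3. Eosinophil markers summed to 43.7 and 13.2 CPM in KO, against 324 and 83.2 CPM in WT, with Ccr3 at 0; in exon counts none of 4 passed with edgeR or DESeq2, and 3 had an unadjusted p under 0.05 with edgeR. In intron reads 3 were tested, and 1, Epx, fell (log2 fold change -2.69; adjusted p = 0.0454, edgeR); DESeq2 also called 1. The 4 libraries had the same order for Cd63, whose WT values lay at 110.0 and 108 CPM. With 2 libraries per genotype few orders are possible, and how many other genes share these orders was not counted.

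The remaining marker lists were low in sum, apart from the late neutrophil list, whose sums overlapped between genotypes. Late neutrophil markers summed to 2339 and 931 CPM in KO, against 974 and 1471 CPM in WT (none of 8 passed). Of these 8, 7 were positive and 1 negative, with a median log2 fold change of 0.63, where 49.3% of all genes were positive. Mast cell and basophil markers summed to 19.9 and 36.4 CPM in KO, against 41.4 and 38.5 CPM in WT (none of 6). Of these 6, 1 was positive and 5 negative, with a median of -0.59. Megakaryocyte markers, in a lineage known for abundant CD9, summed to 15.7 and 22.6 CPM in KO, against 12.3 and 15.7 CPM in WT. Vwf gave 10.1 and 18.0 CPM of this in KO, against 4.07 and 8.21 CPM in WT. None of 3 passed, and 1 was positive and 2 negative, with a median log2 fold change of -0.42. Itga2b had 1.78 and 1.03 CPM in KO, against 3.97 and 2.095 CPM in WT (log2 fold change -1.09, SE 0.46, adjusted p = 0.24, edgeR). Ppbp had no count, and Pf4 had at most 3 in any library. B cell markers summed to 8.78 and 5.46 CPM in KO, against 15.7 and 16.2 CPM in WT, with Ms4a1 at 0. The 1 tested marker, Cd79b, had a log2 fold change of -1.14 (adjusted p = 0.0523, edgeR), and DESeq2 called it (adjusted p = 0.0185). T and NK cell markers summed to 27.5 and 46.1 CPM in KO, against 16.0 and 11.8 CPM in WT; nearly all of it was Thy1, which rose (log2 fold change 1.41, SE 0.27; adjusted p = 0.0478, edgeR), and Cd3e, Cd8a and Ncr1 were at 0. The Thy1 call was lost with a mean of at least 10 CPM, with limma-voom and without WT replicate 1 or WT replicate 2. Erythroid markers stayed between 0.667 and 3.06 CPM in sum and stromal and endothelial markers between 14.1 and 18.6 CPM. In exon counts of the late neutrophil, mast cell and basophil, megakaryocyte and stromal lists DESeq2 called none. With edgeR 2, 2, 1 and 1 genes of these lists had an unadjusted p under 0.05, beside 20.8% of all genes.

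**Figure D4:**
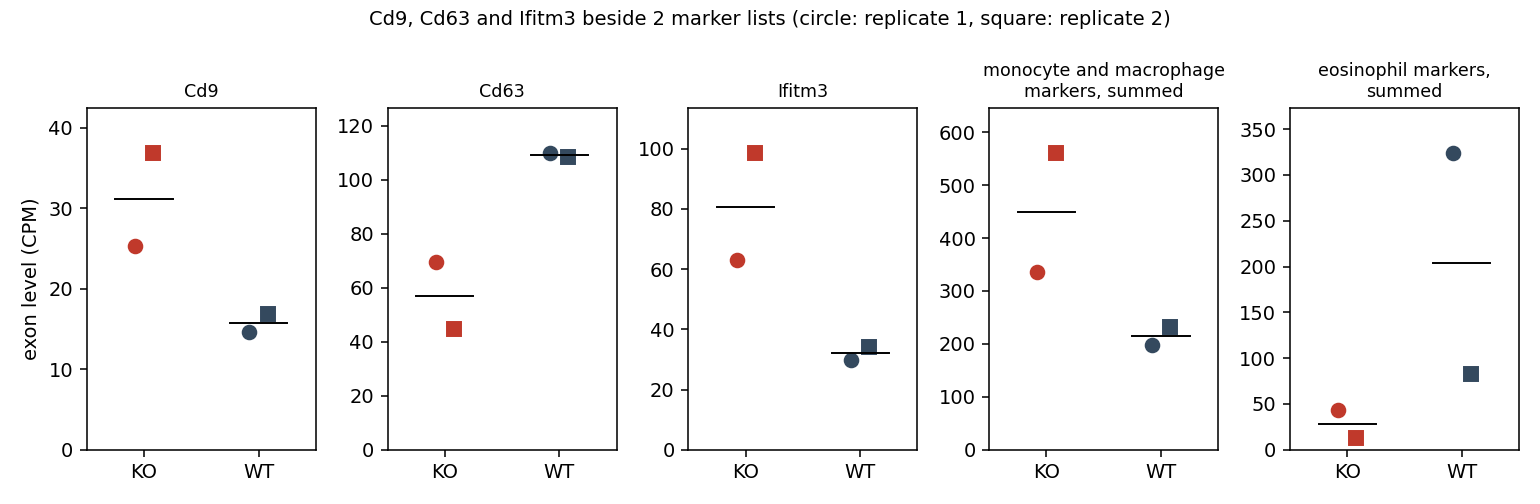
Exon level in CPM of Cd9, Cd63 and Ifitm3 and of the summed monocyte and macrophage and eosinophil markers, with KO to the left and WT to the right, 1 point per library (circle for replicate 1, square for replicate 2) and a line at the group mean. Cd9, Ifitm3 and the monocyte and macrophage sum are highest in KO replicate 2, where Cd63 and the eosinophil sum are lowest. With 2 libraries per genotype few orders are possible, and no link was tested.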

How the data were processed

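Total RNA was extracted with Trizol and sequenced from directional libraries, per the labels' protocols, for 2 Elovl6 KO and 2 WT samples grouped by their titles. The authors deposited whole-number counts per gene (exon counts with a part of the multi-mapping reads, unique and total exon reads, exon-exon reads and intron reads), per the file headers, with an EDGE test whose signed fold change is used as a score and whose corrected p-values come from the deposited table. The build is mm10, per the submitters' processing notes; aligner, counter and strand setting: not given in the sources used here. Reads of genes that overlap on opposite strands may therefore be shared.

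After filterByExpr (count at least 10, sum at least 15) and TMM scaling, edgeR 4.0.16 (R 4.3.3) fitted a quasi-likelihood model without a replicate block, and p-values were adjusted over the whole table by the Benjamini-Hochberg method. Intron reads were fitted likewise with their own totals. The difference between exon and intron change was tested as an interaction in 1 model with library and read type as terms. The script was tested on simulated data. CPM use TMM-scaled library sizes, with intron CPM relative to intron totals. Overlapping genes and strands came from GENCODE vM21, and gene starts in the file, counted from 0, are given counted from 1.

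A count of 3 is the floor of detection, and intervals cover counting error only. Alternatives were RLE scaling, other filters, DESeq2 1.42.0, limma-voom (limma 3.58.1), a replicate block, each library left out, uniquely placed exon reads, gene-count library sizes and, chosen after seeing the data, junction reads. The genes named are Elovl6, the 10 members, called genes of the 2 tetraspanin lists with up to 4 further ones by smallest p at a mean of at least 1 CPM, the nearest tested neighbours of called members and up to 2 genes of each marker list, of which those a result turns on are given. Some genes of these lists are not reported here. The members and lists were chosen with earlier results of these data known. Summaries used Python 3.11.15 and pandas 2.3.3. Replicates differed beyond sampling noise (chi-square per degree of freedom 6.54 in KO and 4.42 in WT).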

Additional observations from a re-analysis of the deposited data

How the results depend on the processing

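The called genes in exon counts numbered 329, and 1677 without a low-count filter, 112 among genes averaging 10 CPM or more, 875 with the replicate block and 14 to 1449 with single libraries left out. The members called numbered 1, and 0 with RLE scaling, a mean of at least 10 CPM or limma-voom, 3 with no filter and 0 to 3 with libraries left out. In intron reads 595 genes were called, 1565 with no filter, 1430 with the replicate block and 287 to 1299 with libraries left out; of the members none were called, 1 with no filter, 2 with the block and 0 to 2 with libraries left out. For the exon change against the intron change 147 genes were called, 261 with the block and 46 to 219 with libraries left out. Where 1 library is left in a group, its spread is taken from the other group. The replicate numbers were not taken as pairs: over all genes tested, deviations of same-numbered libraries correlated at 0.094. That value does not describe single genes. With the block, Cd9 (0.82) and Cd81 (0.45) passed in intron reads. In exon counts the block gave Cd9 0.97 (SE 0.129, adjusted p = 0.00767, edgeR) and Cd63 -0.96 (SE 0.133, adjusted p = 0.0088, edgeR). Without the block their SEs were 0.191 and 0.175.

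Some signs changed. Cd53 had -0.0295 in junction reads. With libraries left out, exon log2 fold changes ran from -0.13 to 0.0696 for Cd37, -0.0633 to 0.0869 for Tspan4 and -0.74 to 0.17 for Tspan13, and intron ones from -0.0847 to 0.24 for Cd37 and -0.017 to 0.20 for Tspan4. The difference of exon and intron change ran from -0.37 to 0.15 for Cd37, -0.16 to 0.14 for Cd82, -0.19 to 0.0511 for Tspan4 and -0.15 to 0.0521 for Tspan32. The cause of these shifts was not tested. Of 289 values of members under alternatives, 262 kept their direction and side of the threshold. Depth limits Cd151 introns most, with 3 reads in 1 library.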
